A study of Mus musculus with 9 samples.

Results

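The genes described here carry out or govern androgen synthesis in Leydig cells, the steroid-secreting cells that lie between the seminiferous tubules of the testis. The 9 genes are Star, Cyp11a1, Hsd3b1, Hsd3b6, Cyp17a1, Hsd17b3, Nr5a1, Lhcgr and Insl3, and every probe set (a group of array probes read as one value) whose only gene symbol in the platform annotation is one of these was included. That gave 11 probe sets of 6 genes, among 45037 probe sets that are not array controls and 18193 genes with a probe set of their own. Of the 11, 8 probe sets of 5 genes passed a filter on mean signal and were tested. Hsd3b6, Insl3 and Lhcgr had no probe set of their own.

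The arrays held RNA from spermatogonia, the germ cells at the base of the tubule, of adult Balb/C mice. Mice in the control group ate a normal diet, and the 2 other groups ate a vitamin A-deficient diet (VAD) for 18 weeks or for 25 weeks, with 3 arrays in each group and no genetic change named. Testes of 2 mice were digested per preparation, the supernatant with the interstitial cells was discarded after collagenase, the remainder was plated overnight, and unattached germ cells were sedimented through albumin to a stated purity above 90%. Neither the age of the control mice nor whether each array is a separate preparation is stated, so the p-values speak for the spread among these arrays alone, which may be technical, and 3 arrays per group limit the precision.

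Leydig cells respond to luteinizing hormone through the receptor Lhcgr. Cholesterol is carried to the inner mitochondrial membrane by the Star protein, cut to pregnenolone by Cyp11a1, and turned into androgens by 3-beta-hydroxysteroid dehydrogenases such as Hsd3b1 and Hsd3b6, by Cyp17a1 and by Hsd17b3. Nr5a1 encodes SF-1, a nuclear receptor that binds the promoters of many of these genes, and Insl3 is a peptide hormone of Leydig cells. These genes are not known as products of spermatogonia, and the first steps also run in the adrenal cortex.

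Promoter windows show the regulatory sequence of the enzymes whose signals are given below. Of the 9 genes, 6 have an entry in the RefSeq promoter table (build GRCm38.p6), and Cyp17a1, Star and Nr5a1 have none there. The 250 bases before the start were searched on both strands for TCAAGG and CAAGGTC, the overlapping cores of an SF-1 half-site. TCAAGG lies in 12.5% of the 32851 windows of that length, and CAAGGTC in 3.32%. The Hsd3b1 window (chr3:98859795-98860044, minus strand) holds 1 TCAAGG on the opposite strand, which reads CCTTGA in capitals here and begins at position -128 from the start. The 2 Cyp11a1 windows (chr9:57997774-57998023 and chr9:58014702-58014951, both plus strand) hold neither motif and are shown because Cyp11a1 has 2 annotated starts.
Hsd3b1: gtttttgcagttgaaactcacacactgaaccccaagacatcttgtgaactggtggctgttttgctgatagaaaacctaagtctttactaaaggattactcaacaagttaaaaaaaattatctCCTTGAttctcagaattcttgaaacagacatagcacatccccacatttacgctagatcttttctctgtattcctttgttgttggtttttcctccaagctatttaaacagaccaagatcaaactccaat
Cyp11a1, first start: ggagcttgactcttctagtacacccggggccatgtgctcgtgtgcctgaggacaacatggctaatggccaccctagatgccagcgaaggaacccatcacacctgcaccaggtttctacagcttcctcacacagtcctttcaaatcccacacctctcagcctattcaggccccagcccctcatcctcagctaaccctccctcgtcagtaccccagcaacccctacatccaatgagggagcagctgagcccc
Cyp11a1, second start: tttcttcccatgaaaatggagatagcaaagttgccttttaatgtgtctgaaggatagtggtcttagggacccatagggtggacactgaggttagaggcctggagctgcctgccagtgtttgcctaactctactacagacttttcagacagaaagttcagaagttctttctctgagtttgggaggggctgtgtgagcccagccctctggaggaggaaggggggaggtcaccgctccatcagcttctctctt
Among the other windows, those of Insl3 and Lhcgr hold TCAAGG, that of Insl3 also holds CAAGGTC, and those of Hsd17b3 and Hsd3b6 hold neither. A match is a string of letters and no measured binding site.

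A pair of arrays, control replicate 3 and VAD 25-week replicate 3, stood apart before any gene was considered. Their trimmed mean signals were 23.0 and 23.3, against 55.6 to 186 on the other 7 arrays, and they correlated with each other at 0.889 but with the others at only 0.776 to 0.809. They are called the dim pair, and because the pair holds both groups it entered the model as a block. VAD 25-week replicates 1 and 2 had poly-A control signals of 303 and 379.5, against 5.31 to 11.6 elsewhere. In fits without the dim pair these arrays are the whole 25-week group, so there the array set and the diet cannot be told apart at 25 weeks. Values below are log2 signals after quantile normalization unless named otherwise, and a probe set's level is never set against another's. Fold changes come from limma with the dim pair as a block and are on the scale of log2(signal + 3.26), with p-values adjusted by Benjamini-Hochberg over all 27022 tested probe sets. Of the spermatogonia markers 14 of 17 on the array passed the filter, among them Ddx4, a germ cell helicase, at 11.2 to 11.7, while Zbtb16, a factor of undifferentiated spermatogonia, read 2.98 to 4.40, on both sides of the filter threshold of 3.39. Spermatid markers passed in 10 of 10 cases, and Prm1, a protein of sperm chromatin, read 9.56 to 12.95. The labelled cell type was thus not alone among the germ cells by these markers.

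With the dim pair as a block, Cyp17a1 was the one gene of androgen synthesis called under the deficient diet, at 25 weeks. It rose 4.63-fold (adjusted p = 0.0147), and the call was lost with group alone in the model (adjusted p = 0.210), without the dim pair (0.0628), and without control replicate 3 (0.0680) or VAD 25-week replicate 3 (0.0695) alone. It was 1 of 8 tested probe sets, beside 14.8% of all tested probe sets called (8.51% higher and 6.29% lower). At 18 weeks 0 of 8 were called, beside 1.46% of all probe sets (1.32% higher and 0.133% lower), and 2 of 8 had an unadjusted p under 0.05 in limma. Hsd3b1 missed the threshold at both times in this fit and passed it at both when the dim pair was left out. The median log2 fold change of all tested probe sets was -0.01 at each time. Both comparisons use the same 3 control arrays and are therefore not independent of each other. In a bulk sample, a different number of Leydig cells and a different amount of RNA per cell cannot be told apart.

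**Figure D1:**
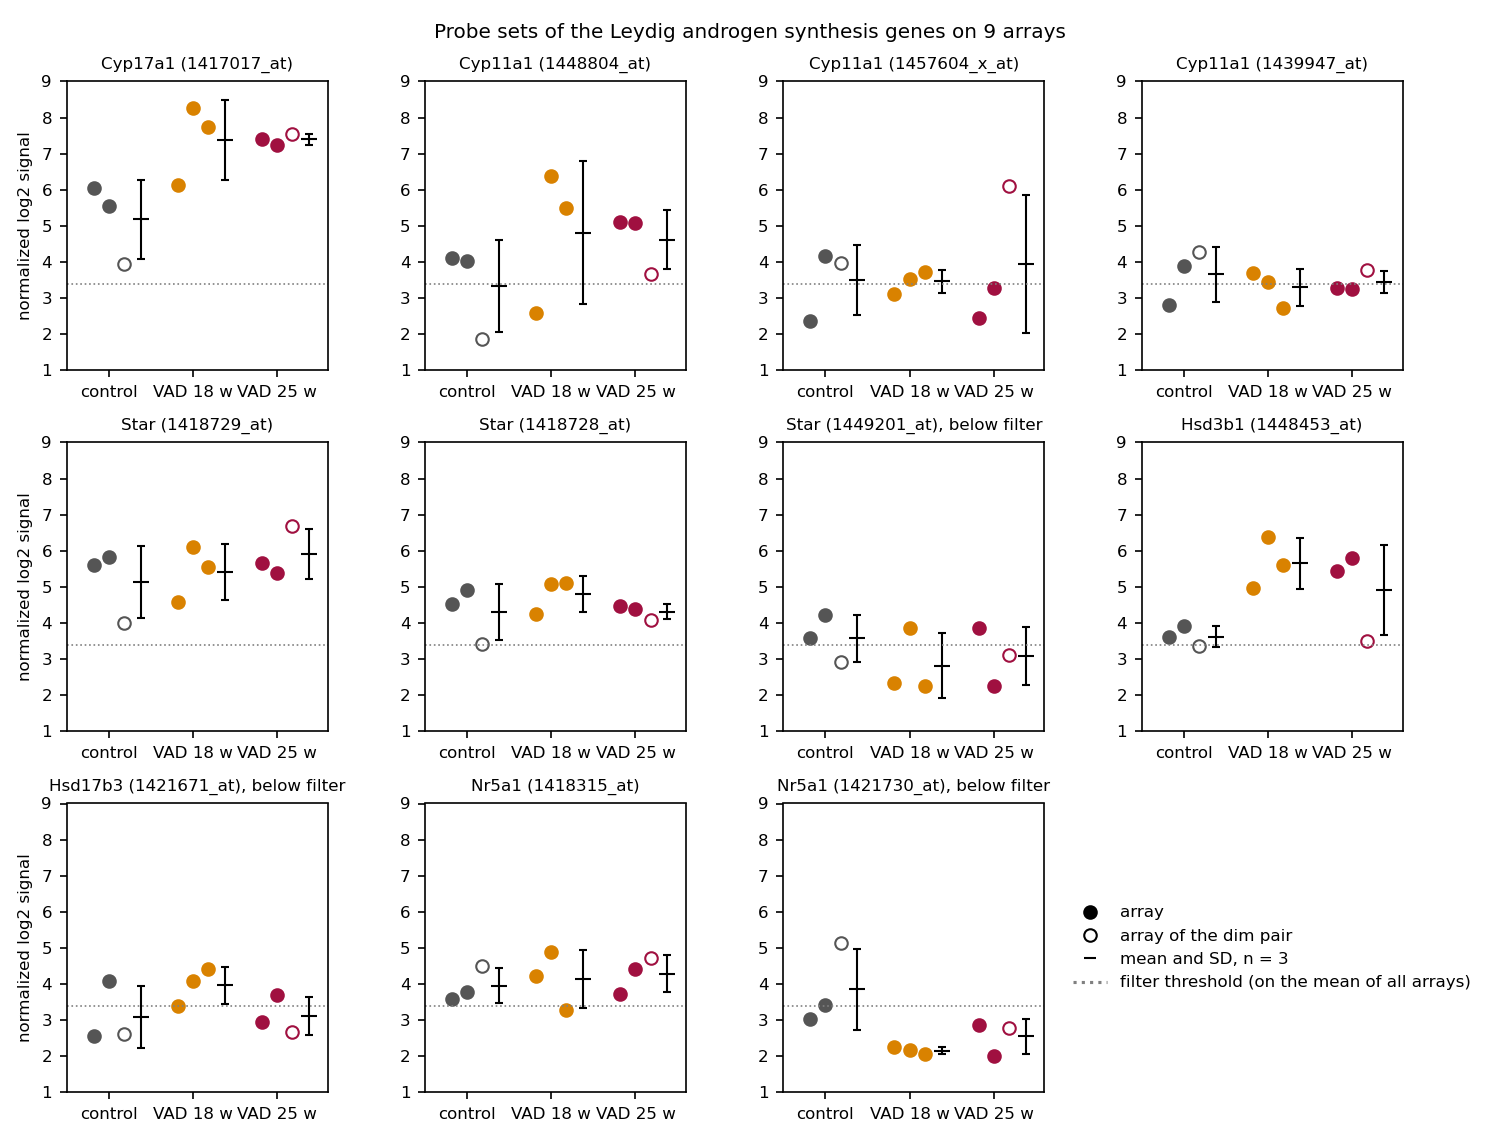
Normalized log2 signal (vertical axis) of the 11 probe sets on each of the 9 arrays by group, with open circles for the dim pair, bars for the mean and SD of 3 arrays, and a dotted line at the filter threshold. All 3 arrays of each VAD group lie above all control arrays for Cyp17a1, and those of the 18-week group do for Hsd3b1, whereas the groups of Star and Nr5a1 that passed the filter overlap.

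Star, which brings cholesterol to the first enzyme, did not pass the test in either VAD group. Its brightest probe set, 1418729_at, read 5.60, 5.83 and 4.00 on the control arrays, 4.59, 6.10 and 5.56 at 18 weeks, and 5.67, 5.39 and 6.70 at 25 weeks. The lowest value came from control replicate 3 and the highest from VAD 25-week replicate 3, the members of the dim pair, and all groups overlap. Its log2 fold change was 0.18 ± 0.55 (SE) at 18 weeks (limma adjusted p = 0.907) and 0.78 ± 0.52 at 25 weeks (adjusted p = 0.342). Within the dim pair the 25-week array exceeded the control array by 2.70, whereas outside it the difference was -0.18. Star probe set 1418728_at read from 3.43 to 5.12 over the 9 arrays with log2 fold changes of 0.24 ± 0.35 and 0.02 ± 0.33 at 18 and 25 weeks. The third Star probe set, 1449201_at, had a mean of 3.16, below the filter threshold of 3.39, and gave -0.92 ± 0.58 and -0.50 ± 0.54 when the filter was left out.

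Cyp11a1, the side-chain cleavage enzyme that commits cholesterol to steroids, had 3 probe sets that differed in their pattern. Probe set 1448804_at read 4.10, 4.04 and 1.86 on the control arrays, 2.58, 6.37 and 5.50 at 18 weeks, and 5.11, 5.09 and 3.67 at 25 weeks. VAD 18-week replicates 2 and 3 and VAD 25-week replicates 1 and 2 were above every control array, and the remaining VAD arrays were not, so the groups overlap. The log2 fold changes were 0.87 ± 0.77 at 18 weeks (limma adjusted p = 0.611) and 1.29 ± 0.73 at 25 weeks (adjusted p = 0.261). Its control mean of 3.33 was under the filter threshold, so this probe set was tested because of the VAD arrays.

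VAD 18-week replicate 1 had the lowest 18-week signal of Cyp11a1 1448804_at, and likewise of Cyp17a1, Hsd3b1 and both tested Star probe sets. When each of the 9 arrays was left out in turn, 1448804_at passed the threshold only without that array, with log2 fold changes of 1.97 at 18 weeks (limma adjusted p = 0.0495) and 1.28 at 25 weeks (adjusted p = 0.0264). As the probe set entered the test through the VAD arrays, these values are a description and no support for a change. The other Cyp11a1 probe sets gave 0.62 ± 0.62 and 0.45 ± 0.58 (1457604_x_at, whose suffix marks probes that may cross-hybridise) and -0.11 ± 0.44 and -0.21 ± 0.42 (1439947_at) at 18 and 25 weeks. Neither passed the test, and the groups overlap on both.

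Hsd3b1, which converts pregnenolone-type steroids to their progesterone-type products, read 3.61, 3.92 and 3.36 on the control arrays. It read 4.97, 6.38 and 5.62 at 18 weeks and 5.44, 5.80 and 3.50 at 25 weeks. All 3 arrays at 18 weeks were above every control array, and at 25 weeks the array of the dim pair fell among the controls while the other two were above them. The deposited signals were 6.04, 8.64 and 4.36 in controls, 33.2, 71.8 and 53.7 at 18 weeks, and 108, 110.3 and 5.33 at 25 weeks.

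The log2 fold change of Hsd3b1 was 1.61 ± 0.44 at 18 weeks (95% interval from 0.65 to 2.57, limma adjusted p = 0.0962) and 1.29 ± 0.41 at 25 weeks (0.38 to 2.19, adjusted p = 0.0582). Neither passed the threshold of 0.05. Without the dim pair both did, at 2.06 ± 0.38 (adjusted p = 0.0170) and 2.02 ± 0.42 (adjusted p = 0.00974), where 3.97% of all probe sets were called at 18 weeks (3.19% higher) and 15.7% at 25 weeks (8.93% higher and 6.79% lower). Leaving out control replicate 3 alone gave 1.97 (adjusted p = 0.0194) and 1.93 (adjusted p = 0.0111), and leaving out VAD 25-week replicate 3 alone gave 1.97 (adjusted p = 0.0199) and 1.93 (adjusted p = 0.0111). Without VAD 25-week replicate 3, alone or with the pair, the 25-week group consists of the 2 arrays with high poly-A controls. Without control replicate 3 the block takes up VAD 25-week replicate 3, the only dim array left. In all of these 25-week calls of Hsd3b1 the array set and the diet therefore cannot be told apart. Within the dim pair the 25-week array exceeded the control array by 0.15, and outside it the difference was 1.86.

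Cyp17a1, the enzyme that turns progestogens into androgen precursors, read 6.06, 5.54 and 3.95 on the control arrays (mean 5.19 ± 1.10, SD, n = 3). It read 6.14, 8.27 and 7.74 at 18 weeks (7.38 ± 1.11, n = 3) and 7.40, 7.25 and 7.54 at 25 weeks (7.40 ± 0.14, n = 3). Every VAD array was above every control array, although VAD 18-week replicate 1 exceeded control replicate 1 only narrowly. Groups that do not overlap, with the VAD group higher, were found for 11.8% of all probe sets at 18 weeks and 9.13% at 25 weeks, and for 2 (Cyp17a1, Hsd3b1) and 1 (Cyp17a1) of the 8. On the deposited scale Cyp17a1 read 51.5, 33.4 and 7.55 in controls, 86.0, 268 and 259 at 18 weeks, and 489, 336 and 61.8 at 25 weeks, so the dim arrays were the lowest of their groups there.

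The log2 fold change of Cyp17a1 at 25 weeks was 2.21 ± 0.51 (95% interval from 1.11 to 3.32, limma adjusted p = 0.0147). With group alone in the model, 0 of 27022 probe sets were called at either time by limma (1955 and 3211 had an unadjusted p under 0.05 at 18 and 25 weeks). The log2 fold change was 1.64 without the dim pair, 1.57 without control replicate 3 and 1.58 without VAD 25-week replicate 3. Within the dim pair the difference was 3.59, and outside it 1.52. At 18 weeks the fitted log2 fold change of Cyp17a1 was 1.93 ± 0.54 (adjusted p = 0.103), and without VAD 18-week replicate 1 it was 2.52 (adjusted p = 0.0314).

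**Figure D2:**
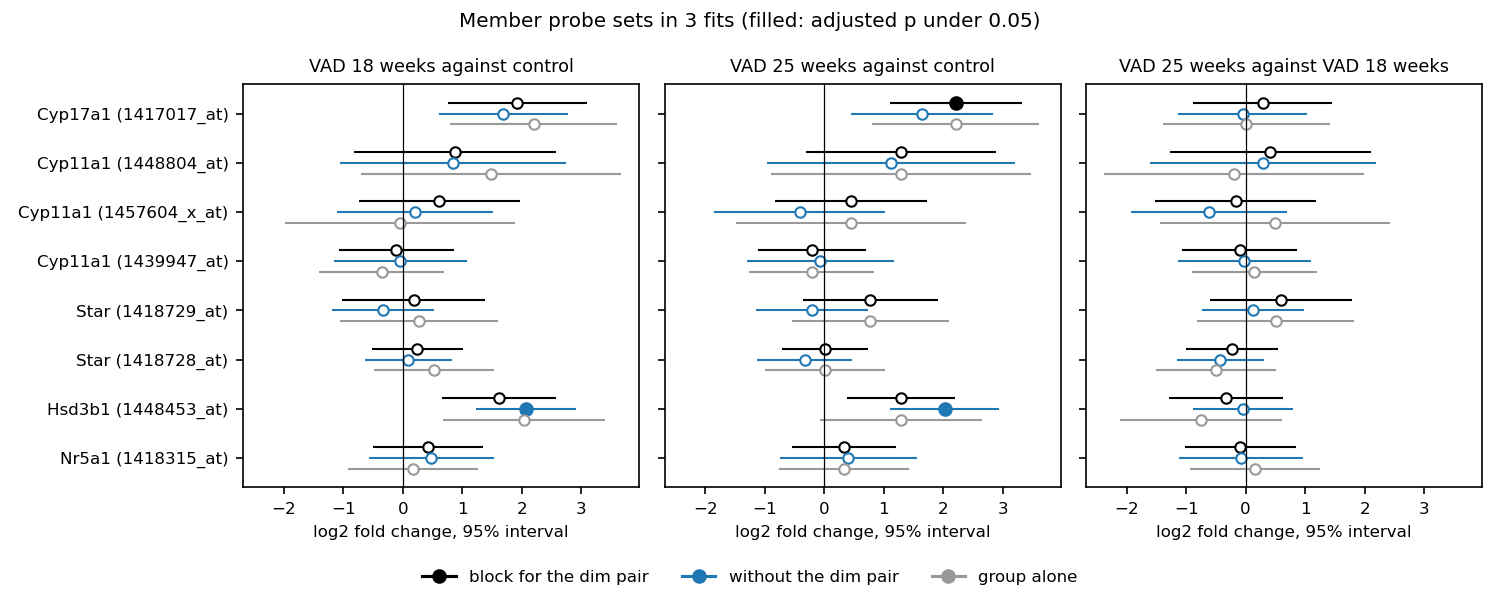
Log2 fold change with its 95% interval (horizontal axis) of the 8 tested probe sets in 3 comparisons, with the dim pair as a block (black), without the pair (blue) and with group alone (grey), filled where the adjusted p was under 0.05. The filled points are Cyp17a1 at 25 weeks with the block and Hsd3b1 at 18 and 25 weeks without the pair.

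Hsd17b3, which reduces androstenedione to testosterone in the testis, fell just short of the filter with a mean of 3.389 against a threshold of 3.393. It read 2.57, 4.09 and 2.61 in controls, 3.40, 4.09 and 4.41 at 18 weeks, and 2.95, 3.71 and 2.67 at 25 weeks, with overlapping groups. In the fit with no filter its log2 fold changes were 0.65 ± 0.50 (limma adjusted p = 0.647) and 0.02 ± 0.47 (adjusted p = 0.987). The last step of testosterone synthesis is therefore represented by one signal at the edge of the filter.

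Nr5a1, the gene of SF-1, had 1 tested probe set, 1418315_at. It read 3.60, 3.77 and 4.50 in controls, 4.21, 4.89 and 3.29 at 18 weeks, and 3.73, 4.41 and 4.73 at 25 weeks. The groups overlap, and the log2 fold changes were 0.42 ± 0.42 (limma adjusted p = 0.663) and 0.33 ± 0.40 (adjusted p = 0.616). The other Nr5a1 probe set, 1421730_at, had a mean of 2.86, below the filter, and its log2 fold changes had the opposite sign, -1.33 ± 0.43 (adjusted p = 0.210) and -1.31 ± 0.41 (adjusted p = 0.0735) with no filter. It read 3.03, 3.42 and 5.13 in controls, 2.25, 2.17 and 2.06 at 18 weeks, and 2.88, 2.00 and 2.77 at 25 weeks. The highest value came from control replicate 3 of the dim pair. The deposited signals at 18 weeks, 1.60, 0.85 and 0.86, were under the pseudocount of 3.26. The fitted signs of the 2 Nr5a1 probe sets differ, but neither passed the test, so no direction is shown for Nr5a1.

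Insl3 shares both of its probe sets with Jak3, a cytokine receptor kinase, so no value is assigned to Insl3. The brighter one, 1423021_s_at, read 7.53, 7.51 and 4.39 in controls, 6.60, 8.12 and 7.37 at 18 weeks, and 6.65, 6.66 and 8.21 at 25 weeks. Its groups overlap. Hsd3b6 appears on 1 probe set together with Hsd3b2 and Hsd3b3, and Lhcgr appears on none in the annotation used here.

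Between 25 and 18 weeks of the diet 0 of the 8 probe sets were called by limma, as were 0% of all probe sets, and 0 of the 8 had an unadjusted p under 0.05 (3124 of 27022 did). Cyp17a1 differed by 0.29 ± 0.54 with a 95% interval from -0.89 to 1.46, and Hsd3b1 by -0.32 ± 0.44 with an interval from -1.29 to 0.64. For Cyp11a1 1448804_at the interval ran from -1.28 to 2.11, and for Star 1418729_at from -0.60 to 1.79. These intervals leave room for differences of over 1 log2 unit, so equal levels at the 2 times are not shown.

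The genes most like Cyp17a1 over the 7 arrays outside the dim pair, among 13611 named genes ranked by Pearson correlation, were Aldh7a1, Stk24, Phkb, Asah1 and Adh5. Their r ran from 0.981 to 0.992 and their Spearman's rho from 0.964 to 1. Over all 9 arrays the r of Adh5 was 0.987 and of Asah1 0.977, and that of Phkb was 0.518. For Cyp11a1 (1448804_at) the closest were Smpx, Nabp2, Cd9, Cct8l1 and Mios with r from 0.978 to 0.982, and for Star (1418729_at) Slc6a19, Pdlim5, Ccl1, Smad4 and Nfe2l2 with r from 0.959 to 0.968. Over 9 arrays these ran from -0.27 to 0.82 and from -0.10 to 0.45. The correlations describe 7 arrays in 3 groups that share group differences, and the highest of so many genes are high by selection.

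Genes around the pathway were counted from lists of its steps. Beside them, 1.46% of all tested probe sets were called at 18 weeks (1.32% higher and 0.133% lower). At 25 weeks 14.8% of all were called (8.51% higher and 6.29% lower). List counts near these shares are no result about the list. For cholesterol supply, 0 of 8 tested genes were called at 18 weeks (median log2 fold change 0.02) and 2 of 8 at 25 weeks (median -0.13). The latter were Abca1, a cholesterol exporter (1.42 ± 0.36, limma adjusted p = 0.0226), and Npc2, a lysosomal cholesterol carrier (0.44 ± 0.12, adjusted p = 0.0343), and without the dim pair neither was called (adjusted p = 0.0888 and 0.106). Scarb1, the receptor that takes up lipoprotein cholesterol, read 0.46 ± 0.20 and -0.12 ± 0.19.

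Of 13 tested steroid enzymes and electron donors, 1 was called higher at 18 weeks (median 0.31), beside 1.32% of all tested probe sets. At 25 weeks 2 were called higher and 1 lower (median 0.21), beside 8.51% and 6.29% of all. Cyb5b, an outer mitochondrial cytochrome b5, read 6.06, 6.38 and 6.48 in controls, 7.41, 7.32 and 7.08 at 18 weeks, and 7.39, 7.45 and 7.91 at 25 weeks. Its groups do not overlap, and it rose by 1.09 ± 0.18 (limma adjusted p = 0.0169) and 1.27 ± 0.17 (adjusted p = 0.00139). Sult1e1, a sulfotransferase that inactivates estrogen in Leydig cells, rose by 2.36 ± 0.59 at 25 weeks (adjusted p = 0.0210), with 1.94 ± 0.62 at 18 weeks (adjusted p = 0.152). Sult1e1 read 2.5, 3.91 and 2.1 in controls, with a mean under the filter threshold, and was thus tested because of the VAD arrays. Cyb5r3, a cytochrome b5 reductase, fell by 0.82 ± 0.25 at 25 weeks (adjusted p = 0.0465), and was not called without the dim pair (adjusted p = 0.104). On the deposited scale its change was a rise of 0.28, where the median of all probe sets was 0.93. Apart from that of Nr4a3 below, every fall called at 25 weeks in these lists was a rise on the deposited scale that was not called there. The deposited scale also carries the brightness of each array. All normalized changes, rises included, are relative to the other probe sets. Fdx1, the electron donor of Cyp11a1, read 0.31 ± 0.18 and -0.03 ± 0.17.

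Of 18 tested genes of luteinizing hormone signalling and steroid gene transcription, 0 were called at 18 weeks (median -0.25), beside 1.46% of all tested probe sets. At 25 weeks 1 was called higher and 3 lower (median -0.19), beside 8.51% and 6.29% of all. Nr4a3, an immediate early nuclear receptor, fell by 1.84 ± 0.43 at 25 weeks (limma adjusted p = 0.0160), with -2.02 ± 0.45 at 18 weeks (adjusted p = 0.0537). Its 25-week change on the deposited scale was also a fall, -0.72 (limma adjusted p = 0.211). Prkaca and Prkar1a, subunits of protein kinase A, fell by 0.77 ± 0.18 (adjusted p = 0.0172) and 0.42 ± 0.11 (adjusted p = 0.0280). On the deposited scale both changes were rises, of 0.31 and 0.42. Creb1, a factor phosphorylated by that kinase, rose by 0.75 ± 0.22 (adjusted p = 0.0404). Without the dim pair the list held 1 call at 25 weeks, Prkaca (adjusted p = 0.0497), beside 15.7% of all tested probe sets.

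**Figure D3:**
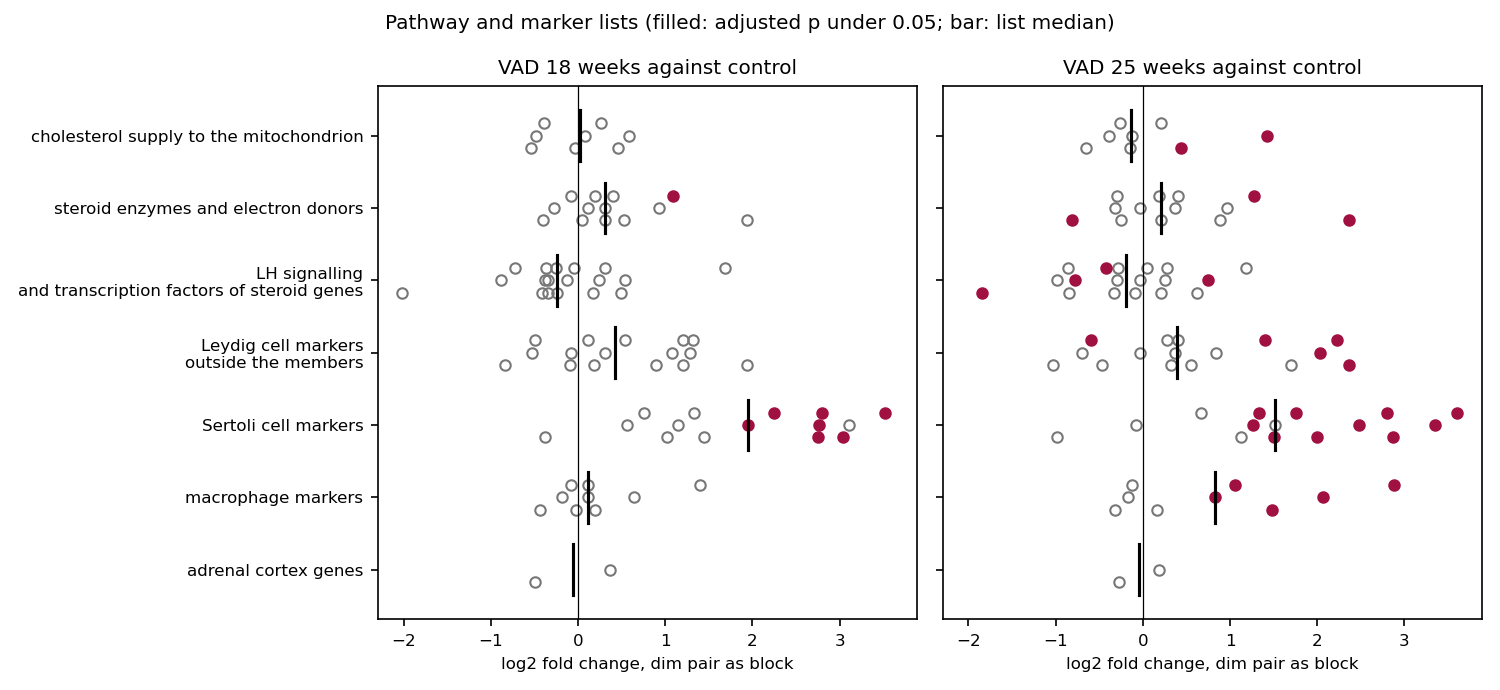
Log2 fold change with the dim pair as a block (horizontal axis) of each tested gene of 4 pathway and Leydig lists and 3 lists of other cell types, at 18 weeks (left) and 25 weeks (right), filled where the adjusted p was under 0.05, with a bar at the list median. Sertoli markers hold 7 and 10 filled points of 15, whereas the Leydig list holds 0 and 5 of 16. Of all tested probe sets, 1.46% and 14.8% were called at 18 and 25 weeks.

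Markers of the cells that could carry these transcripts moved with the results as follows. Leydig markers outside the 9 genes, of which 16 were tested and 4 also stand in another list here, had a median log2 fold change of 0.42 at 18 weeks with 0 called, beside 1.46% of all tested probe sets. At 25 weeks the median was 0.39, and it was 0.00 without the dim pair. With the block, 4 were called higher and 1 lower at 25 weeks, beside 8.51% and 6.29% of all. The 4 were Ptch1, the receptor of hedgehog ligands (2.03 ± 0.33, limma adjusted p = 0.00337), Aldh1a1, a retinaldehyde dehydrogenase (2.23 ± 0.49, adjusted p = 0.0128), Fads1, a fatty acid desaturase (1.40 ± 0.37, adjusted p = 0.0278), and Sult1e1. Egflam, a matrix protein, fell by 0.59 ± 0.16 (adjusted p = 0.0310), and its change on the deposited scale was a rise of 0.41. Without the dim pair 3 of the 16 were called at 25 weeks, all higher: Ptch1, Sult1e1 and Gli1, a hedgehog transcription factor (1.61 ± 0.48, adjusted p = 0.0434), whereas Aldh1a1, Fads1 and Egflam were not (adjusted p = 0.0596, 0.0901 and 0.0614). On the control arrays Ptch1 read 2.67, 2.9 and 3.19, Sult1e1 2.5, 3.91 and 2.1, and Gli1 2.1, 2.6 and 4.44. Their control means were under the filter threshold, so Ptch1, Sult1e1 and Gli1 were tested because of the VAD arrays. The calls of Ptch1, Sult1e1 and Gli1, with or without the dim pair, are therefore a description and no support for a change. The summed signal of the 16 genes ran from 1258 to 2740 in controls, from 2470 to 3439 at 18 weeks and from 2017 to 2835 at 25 weeks, and Fdx1 alone gave 34.1% to 61.8% of it. Without Fdx1 the sums were 770 to 1062 in controls, 944 to 1785 at 18 weeks and 1330 to 1478 at 25 weeks, so that the 25-week arrays lay above all controls and the 18-week arrays overlapped with them. These sums still hold Aldh1a1, which read 5.05 to 7.46 in controls and 8.58 to 8.98 at 25 weeks. Whether the 25-week arrays stay above the controls without Aldh1a1 was not tested, so a rise over the whole list is not shown.

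Sertoli cell markers, from the somatic cells inside the tubule, had a higher summed signal on every VAD array than on any control array. The sum over 15 genes was 247 to 355 in controls, 821 to 2542 at 18 weeks and 1056 to 1886 at 25 weeks. At the 2 times 7 and 10 of 15 were called higher and 0 lower (medians 1.95 and 1.51), beside 1.32% and 8.51% of all tested probe sets called higher. Among them Gja1, a gap junction protein, rose by 3.53 ± 0.43 (limma adjusted p = 0.00520) and 3.61 ± 0.40 (adjusted p = 0.000562). Gja1 read 2.94, 2.46 and 1.89 in controls, under the filter threshold, and was thus also tested because of the VAD arrays. VAD 18-week replicate 1, lowest in its group for Cyp17a1 and Hsd3b1, was also lowest for the Sertoli sum (821), and replicate 2 was highest for all of these (2542). This order was not particular to Sertoli markers. It also held for the sums of Leydig (2470 and 3439), macrophage (393 and 436), peritubular myoid (311 and 581) and spermatid markers (7531 and 12384). The sums of cholesterol supply (926 and 1210), luteinizing hormone signalling (4007 and 4166) and fibroblast markers (56.7 and 66.5) had the same order. This order did not hold for the sums of steroid enzymes and of adrenal, endothelial and spermatogonia markers.

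Macrophage markers summed to 376 to 458 in controls, 393 to 436 at 18 weeks and 514 to 575 at 25 weeks, with 0 and 5 of 9 called higher. Peritubular myoid markers had 0 and 1 of 6 called (Smoc2, lower at 25 weeks, with a rise of 0.18 on the deposited scale). Endothelial and fibroblast markers had 0 of 6 and 0 of 4 called at both times. Of the adrenal cortex list, 2 of 6 genes on the array passed the filter, Cyp11b2 and Cyp21a1, and neither was called. Spermatogonia markers had 1 and 3 of 14 called higher. Among the latter, Kit read 2.86, 3.65 and 2.51 in controls, with a mean under the filter threshold. Kit was therefore also tested because of the VAD arrays. Spermatid markers had 0 and 2 of 10 called lower (Tnp2 and Acr, with rises of 0.08 and 0.14 on the deposited scale). The part of these cells in the signals of Cyp17a1 and Hsd3b1 was not tested.

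**Figure D4:**
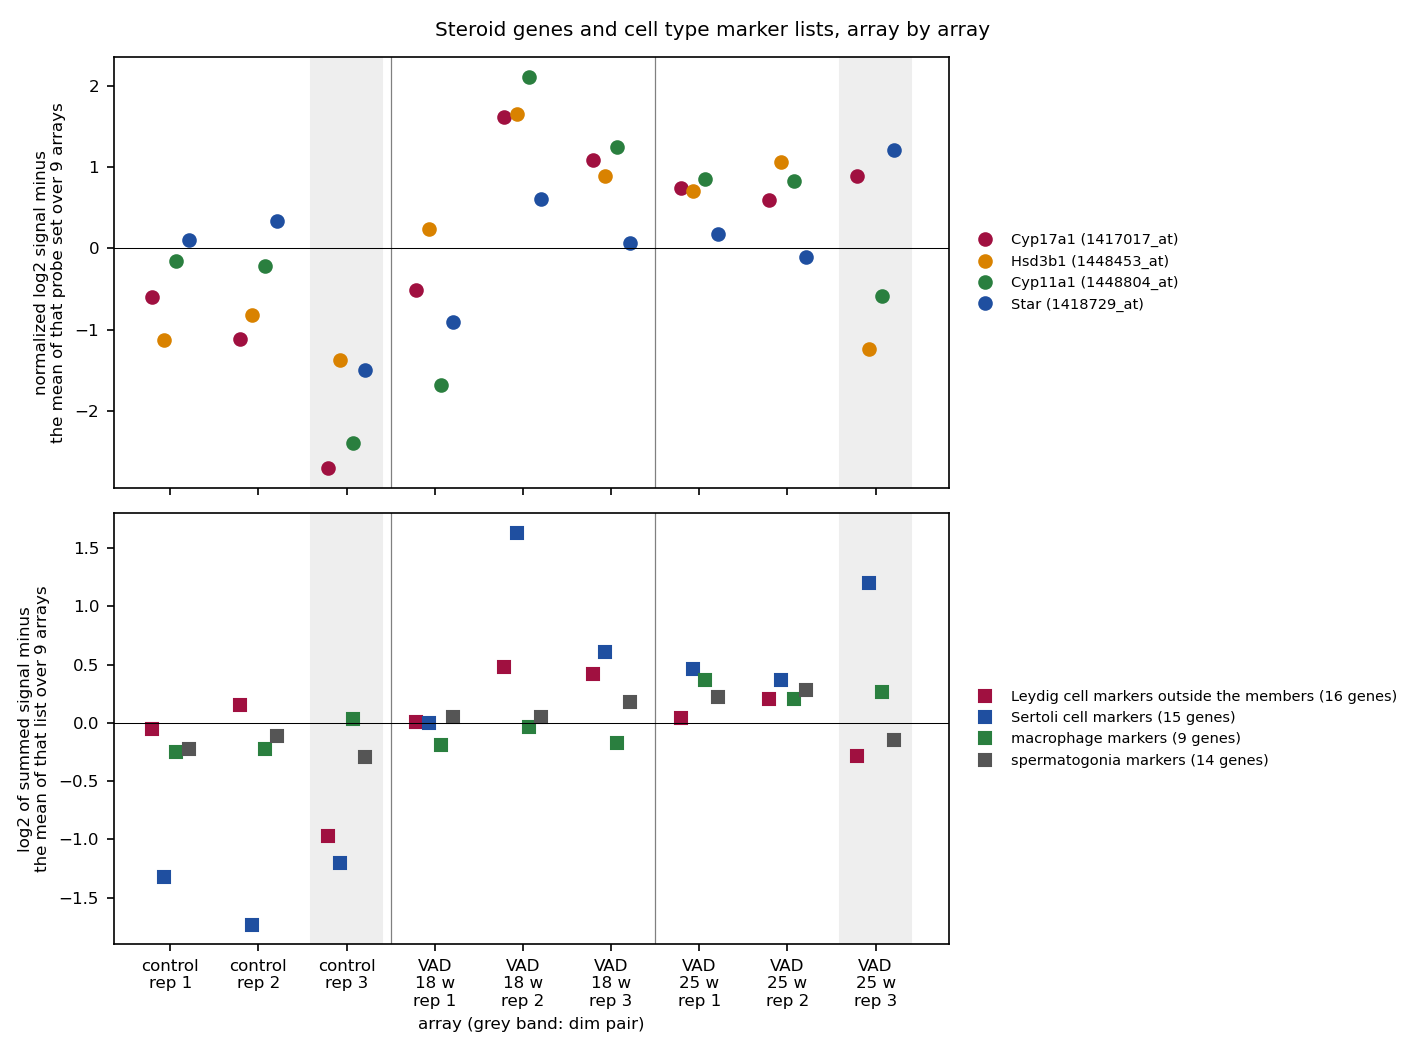
For each array (horizontal axis), the normalized log2 signal of Cyp17a1, Hsd3b1, Cyp11a1 and Star (top) and the log2 summed signal of 4 marker lists (bottom), each minus its own mean over the 9 arrays, with grey bands for the dim pair. Sertoli sums of all 6 VAD arrays exceed those of the 3 control arrays, and VAD 18-week replicate 1 lies lowest in its group for all 4 genes. A single gene gave up to 61.8% of the Leydig sum (Fdx1), 36.2% of the Sertoli sum (Ctsl), 64.4% of the macrophage sum (Fcgr3) and 79.4% of the spermatogonia sum (Ddx4).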

How the data were processed

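Total RNA of spermatogonia went through 2 cycles of amplification and onto 9 Affymetrix arrays. The deposited intensity values, on a linear scale, were made by the authors with MAS5, per the submitters' processing notes, with the version and scaling target unstated in the sources used here. Trimmed means differ between arrays. Signals became log2(signal + 3.26), the pseudocount being the 25th percentile of all signals, which by itself understates changes of low signals. The values were then quantile-normalized, which can widen changes on the dim arrays. For Cyp17a1 in the dim pair, deposited signals of 7.55 and 61.8 became 3.95 and 7.54. These lie further apart than the log2 values of the deposited signals. After dropping 64 control probe sets, 27022 of 45101 were kept, those whose mean reached the 40th percentile (log2 3.39).

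Tests used limma 3.58.1 in R 4.3.3 (lmFit, eBayes with trend) over all arrays, with group and a block for the dim pair, whose trimmed means (2% off each end) were under 0.5 of the median array, and a Benjamini-Hochberg adjusted p under 0.05. The scripts were tested on simulated data. Names come from the platform annotation, with 1 symbol for 34958 probe sets, several for 932 and none for 9211, and 34754 of the single symbols were found in a RefSeq gene table (GRCm38.p6). Other genes are represented by their brightest kept probe set, with suffixes _x_at and _s_at used last. Named are all probe sets of the 9 genes, up to 5 genes per list and comparison with the smallest p, and the 5 genes most like Cyp17a1, Cyp11a1 and Star. Scarb1, Fdx1, Ddx4, Zbtb16, Prm1, Cyp11b2, Cyp21a1, Amhr2, Dhh and Fcgr3 were named after their values were seen where the rule does not hold them. The 9 genes, the lists and the block were chosen with earlier results of these data known. Replicate numbers were shared between groups, and the alternatives are given at the end.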

Additional observations from a re-analysis of the deposited data

Results flagged for a closer look

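Probe set 1460232_s_at, which carries the symbols Hsd3b6, Hsd3b3 and Hsd3b2 and enters no comparison of the 9 genes, gave a mean log2 signal of 4.16 at 18 weeks and 4.39 at 25 weeks, above each control array (2.33, 2.17 and 3.63). Single arrays read 2.79, 4.80 and 4.88 at 18 weeks and 5.14, 4.65 and 3.37 at 25 weeks, so the groups overlap. With the dim pair as a block the log2 fold changes were 1.42 ± 0.69 (limma adjusted p = 0.329) and 1.68 ± 0.65 (adjusted p = 0.106). The signal cannot be assigned to any one of the 3 genes.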

How the results depend on the processing

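Of the 8 tested probe sets, 0 were past the threshold at 18 weeks with the dim pair as a block, where 1.46% of all probe sets were. The count was 1 without the dim pair (3.97% of all), with a block of 3 array sets (3.56%) and with median centring (1 of 9, 1.78%), 2 of 9 on the deposited scale (0.496%), 2 with array weights (4.02%), and 0 to 2 when 1 array was left out. At 25 weeks it was 1 (14.8% of all), against 0 with group alone (0%), with no variance trend (8.8%), and with the replicate block in place of the block for the dim pair (0.0037%). It was 2 with 3 array sets (18.5%), median centring (2 of 9, 13.4%), a filter at the 60th percentile (2 of 4, 22.6%) and array weights (24.3%), 5 of 9 on the deposited scale (39.1%, with a median change of 0.93 over all probe sets), and 1 to 2 when 1 array was left out. Between 25 and 18 weeks it was 0, 1 with 3 array sets (Star, 6.32%), and 0 in each fit that left out an array. With 3 array sets the 25-week comparison rests on the dim pair alone. The replicate block beside the block for the dim pair gave 0, 1 and 0. Of the same-number correlations 3 of 9 exceeded 0.1, and 3 of 9 samples correlated best with their own number. The 3 lay between control and 25-week arrays (0.525, 0.519 and 0.690), where different numbers reached 0.540. Both arrays of the dim pair are numbered replicate 3 in those groups, so the check cannot show whether replicate numbers pair the samples. The log2 fold changes of Cyp17a1 and Hsd3b1 against control were above 0 in all 23 alternatives at both times, from 1.48 to 2.52 and from 1.10 to 2.06 at 18 weeks, and from 1.57 to 3.59 and from 0.15 to 2.33 at 25 weeks. Over the 24 values of single probe sets, 540 alternative values held 24 that newly passed the threshold, 6 that no longer did and 0 called values that changed sign. The cause of these differences was not tested. Signals near the filter, as for Hsd17b3 and Nr5a1, limit what can be measured.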
